A study of Caenorhabditis elegans with 9 samples.

Results

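The core genes of the DBL-1 pathway, the BMP (bone morphogenetic protein) pathway that sets body size in *Caenorhabditis elegans*, were followed through RNA-seq of late L2 larvae. They are the ligand gene *dbl-1*, the receptor genes *sma-6* and *daf-4*, the R-Smad genes *sma-2* and *sma-3*, the Co-Smad gene *sma-4*, the cofactor gene *sma-9* and the extracellular regulator genes *sma-10*, *lon-2* and *lon-1*. These 10 genes of the 46875 listed were chosen by name for their place in the pathway, by a rule that uses no measured value. Earlier results of these data were known when they were chosen. All 10 had enough reads to be tested.

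The study compared wild-type N2 worms with *sma-3(wk30)* worms, which lack a working Smad, and with *sma-9(ok1628)* worms, which carry a deletion in the Schnurri gene. Each genotype had 3 biological replicates of whole worms without a transgene, grown at 20 °C under 21% oxygen after embryos had been isolated with hypochlorite, and polyA RNA was sequenced. Each mutation is represented by 1 allele, described by the study as strong loss-of-function or null. Values are CPM, the reads of a gene scaled to a common library size normalized by the authors. A difference is between means of log2(CPM + 1), and for weakly expressed genes it is smaller than the true log2 ratio. A gene was called when its adjusted p, from limma with the Benjamini-Hochberg method over the 13105 tested genes, was at most 0.05. Levels of a gene come from whole worms, so that fewer cells making a transcript and less transcript per cell cannot be told apart.

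In the pathway, the BMP-like ligand DBL-1 is made mainly by neurons and binds a complex of the type I receptor SMA-6 and the type II receptor DAF-4. The receptors activate the R-Smads SMA-2 and SMA-3, which enter the nucleus with the Co-Smad SMA-4, and the zinc finger protein SMA-9, the homolog of *Drosophila* Schnurri, acts with them on transcription. Outside the cell, the membrane protein SMA-10 promotes signaling and the glypican LON-2 limits it, while LON-1 is a secreted protein that limits body length. Loss of the ligand, a receptor or a Smad gives small worms, whereas loss of *lon-1* or *lon-2* gives long ones. The hypodermis is a main site where the receptors and Smads act on body size, and DAF-4 also serves the separate pathway of the ligand DAF-7 that controls dauer entry.

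The libraries held 58889275 to 82735807 reads assigned to genes, and 3 reads of a gene corresponded to 0.035 to 0.0503 CPM. The fewest reads behind a pathway gene in any library were 536, for *sma-2*, and the most were 20542, for *lon-1*. Libraries carry a running number in their names. Wild-type replicates 1 and 2 and replicate 1 labelled *sma-9* had numbers of 7 or less, wild-type replicate 3 and replicates 2 and 3 labelled *sma-9* had numbers of 8 or more, and the *sma-3* libraries had still higher numbers. What the number stands for is not given in the labels. For *sma-3* mutants the number and the genotype cannot be told apart, and for the libraries labelled *sma-9* differences were also taken within the low and within the high numbers.

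The mutated genes were examined in every library. *sma-3* had 26.5, 21.4 and 22.4 CPM in wild-type, 12.6, 13.3 and 14.2 CPM in *sma-3* mutants, and 38.3, 37.2 and 36.6 CPM in the libraries labelled *sma-9*. The *sma-3* libraries were thus all below wild-type, and the transcript was still present. *sma-9* had 87.6, 89.4 and 119 CPM in wild-type, 121.7, 114 and 129 CPM in *sma-3* mutants, and 173, 213 and 219 CPM in the libraries labelled *sma-9*. The transcript of the deleted gene was therefore higher, not lower, in the libraries labelled with its mutation. Counts of a whole gene do not separate reads of the deleted exons from those of the rest, so this does not check the label, and those libraries are called by their label throughout.

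Of the 10 genes, *sma-10* and *lon-1* were upregulated in *sma-3* mutants and *sma-6*, *sma-2* and *sma-3* were downregulated. That is 2 genes higher, against 9.36% of all tested genes, and 3 lower, against 12.2%. The median difference of the 10 was 0.02, beside -0.01 for all tested genes. In the libraries labelled *sma-9*, *sma-3*, *sma-9* and *lon-1* were upregulated, 3 genes against 3.02% of all tested genes, and 0 were downregulated, against 3.85%. At an unadjusted p under 0.05 there were 5 higher and 0 lower, and limma voom on the recovered reads also called 0 lower. The median of the 10 was 0.26, beside 0.00 for all tested genes. With the mutants set against each other, *sma-6*, *sma-2*, *sma-3*, *sma-9* and *lon-1* were lower in *sma-3* mutants, 5 genes against 9.1%, and 0 were higher, against 8.56%. Again 0 were higher at an unadjusted p under 0.05 or with limma voom. These counts include the mutated genes themselves. *sma-3* is among the 3 lower in *sma-3* mutants, and *sma-9* is among the 3 higher with its own label. Both are among the 5 lower between the mutants. A change in the transcript of a mutated gene does not show a response of the rest of the pathway. The comparisons share libraries, so they are not independent of one another.

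Markers of tissues and stages moved with the genotypes. Adult markers (3 vitellogenin genes and *col-19*) summed to 1.68 to 8.0 CPM in wild-type, 24.9 to 42.7 in *sma-3* mutants, where 4 of 4 were higher, and 1.34 to 9.03 in the libraries labelled *sma-9*. Hypodermal markers summed to 589.6 to 759 CPM in wild-type, 355 to 449 in *sma-3* mutants, where *dpy-7* was lower and *tsp-15* higher, and 543 to 616 in the libraries labelled *sma-9*. The collagen gene *dpy-7* made up the fall of that sum, going from 454 to 191 CPM in *sma-3* mutants, while the other 4 hypodermal markers summed to 177 to 259.5 CPM in wild-type, 185 to 209 in *sma-3* mutants and 189.7 to 233 with the label *sma-9*. Intestinal markers summed to 995 to 1056 CPM in wild-type, 997 to 1079 in *sma-3* mutants and 667 to 763 in the libraries labelled *sma-9*, where 4 of 4 were lower. Pharyngeal markers summed to 1008 to 1403, 1216 to 1283 and 536 to 853 CPM in the same order, and 1 of 4, *myo-2*, was lower with the label *sma-9*. Among 3 seam markers, *grd-10* was higher in *sma-3* mutants (1.32, limma adjusted p = 0.0033). *nhr-73* went the other way without a call (-0.75, adjusted p = 0.0557), and *elt-1* was not called (0.29, adjusted p = 0.311). Between the mutants *grd-10* was higher in *sma-3* mutants (0.98, adjusted p = 0.0141) and *nhr-73* was lower (-1.12, adjusted p = 0.0139). Of the markers of body wall muscle, germline and coelomocytes, 0 were called against wild-type by limma or limma voom; at an unadjusted p under 0.05 there were 1, 1 and 0 in *sma-3* mutants and 1, 0 and 2 with the label *sma-9*. Between the mutants, 4 of 4 adult, 4 of 4 pharyngeal and 2 of 4 intestinal markers were higher in *sma-3* mutants. The same held for 2 of 2 coelomocyte and 1 of 4 body wall muscle markers. In these lists 0 were lower, and 0 of 4 germline markers were called. Of the hypodermal markers *dpy-7* was lower and *tsp-15* higher. Calls among all tested genes were 9.36% higher and 12.2% lower in *sma-3* mutants, and 3.02% and 3.85% in the libraries labelled *sma-9*. Between the mutants they were 8.56% and 9.1%. Every marker had reads in some library, and the part of these marker shifts in the levels of the pathway genes was not tested.

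**Figure D1:**
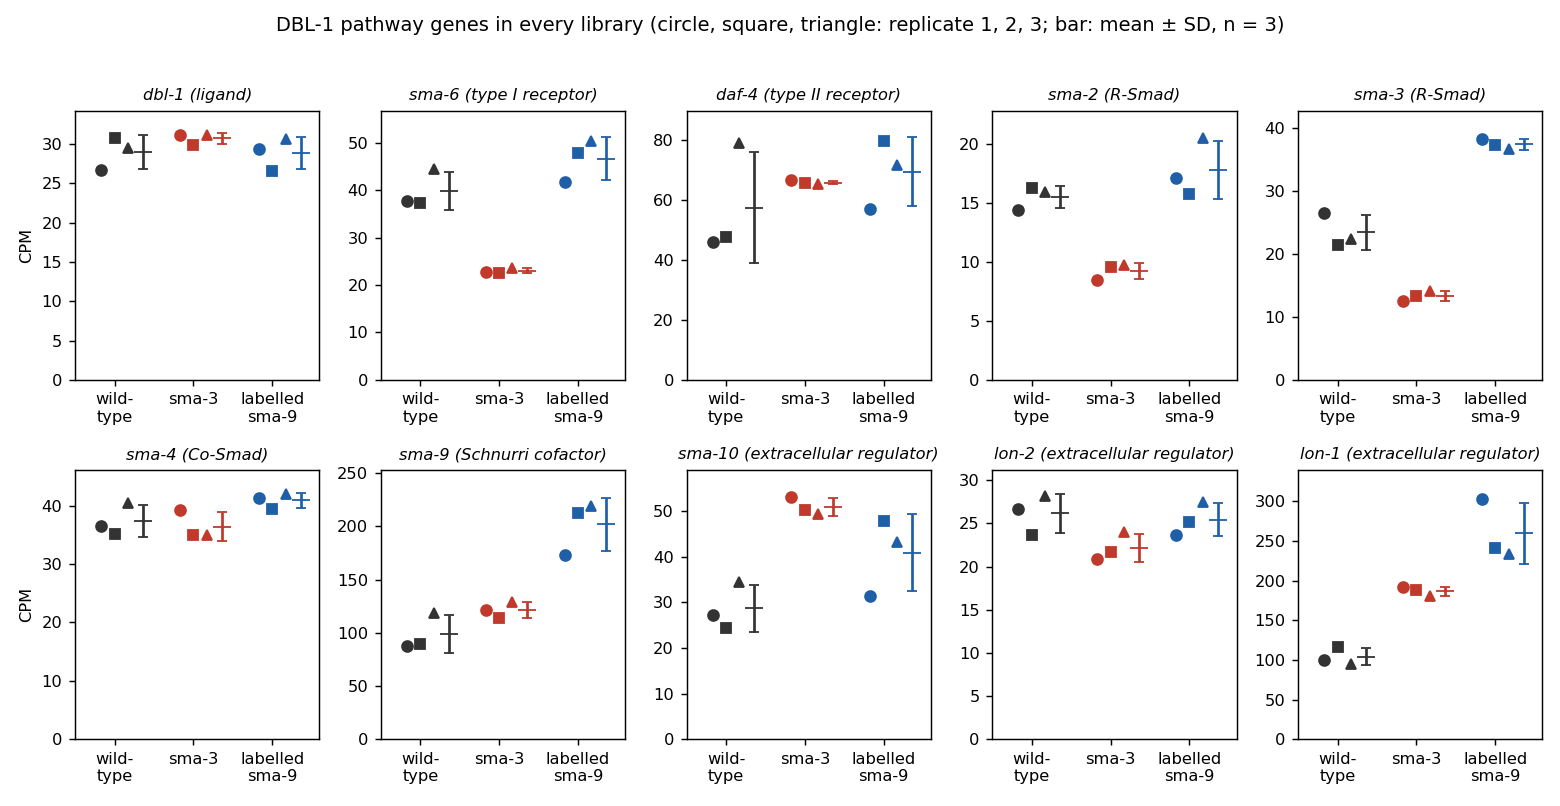
Level of each pathway gene in CPM (y axis, from 0) in the 3 wild-type, 3 *sma-3* and 3 libraries labelled *sma-9*. Symbols are replicates 1, 2 and 3 and the bar is the mean ± SD; *sma-6*, *sma-2* and *sma-3* are lowest in every *sma-3* library, *lon-1* is above wild-type in all 6 mutant libraries, and wild-type replicate 3 stands apart from the other wild-type libraries for *daf-4*.

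The ligand gene *dbl-1* (WBGene00000936; WBcel235, chromosome V, 6758135 to 6760418) was called in no comparison. It had 26.7, 30.8 and 29.5 CPM in wild-type, 31.2, 29.9 and 31.1 CPM in *sma-3* mutants, and 29.4, 26.6 and 30.6 CPM in the libraries labelled *sma-9*. The 3 groups overlapped. The difference was 0.08 in *sma-3* mutants (95% interval -0.10 to 0.27, limma adjusted p = 0.504), and with the label *sma-9* it was -0.01 (-0.19 to 0.18, adjusted p = 0.981). The exons of *dbl-1* overlap those of T25F10.4 on the opposite strand. T25F10.4 averaged 0.439 CPM, and the strand setting of the counting is not given in the sources used here, so reads of the overlap cannot be told apart. Markers of neurons, the main source of the ligand, had summed levels of 376 to 449.8 CPM in wild-type, 447 to 464 in *sma-3* mutants and 416 to 473 in the libraries labelled *sma-9*. Of the 6 neuronal markers 0 were called against wild-type in either mutant by limma or limma voom. At an unadjusted p under 0.05 there was 1 in each mutant. Calls among all tested genes were 9.36% higher and 12.2% lower in *sma-3* mutants, and 3.02% and 3.85% in the libraries labelled *sma-9*. Of the 6 markers of ventral cord motor neurons 0 were called against wild-type as well, with 1 at an unadjusted p under 0.05 in *sma-3* mutants and 0 in the libraries labelled *sma-9*. Between the mutants 1 of these 6, the acetylcholine transporter gene *unc-17*, was higher in *sma-3* mutants (0.41, limma adjusted p = 0.03). All tested genes gave 8.56% higher in that comparison.

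Of the receptor genes, *sma-6* was downregulated in *sma-3* mutants and *daf-4* was called in no comparison. The type I receptor gene *sma-6* (WBGene00004860; chromosome II, 6324484 to 6327355) had 37.8, 37.4 and 44.6 CPM in wild-type, 22.8, 22.6 and 23.6 CPM in *sma-3* mutants, and 41.7, 47.9 and 50.4 CPM in the libraries labelled *sma-9*. All *sma-3* libraries lay below all others, while the wild-type libraries and those labelled *sma-9* overlapped. It fell by 0.77 in *sma-3* mutants (SE 0.095, limma adjusted p = 0.00115). In the libraries labelled *sma-9* the difference was 0.22 (95% interval 0.01 to 0.44, adjusted p = 0.21), and it was 0.15 among the libraries with low numbers and 0.14 among those with high numbers. Between the mutants *sma-6* differed by -0.99 (adjusted p = 0.00024).

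The type II receptor gene *daf-4* (WBGene00000900; chromosome III, 5625135 to 5632323) had 45.9, 47.6 and 78.8 CPM in wild-type, 66.5, 65.5 and 65.4 CPM in *sma-3* mutants, and 57.0, 79.8 and 71.6 CPM in the libraries labelled *sma-9*. Wild-type replicate 3 stood far above the other wild-type libraries, and the groups overlapped. The difference from wild-type was 0.24 in *sma-3* mutants (95% interval -0.20 to 0.68, limma adjusted p = 0.426), and with the label *sma-9* the difference was 0.30 (-0.14 to 0.74, adjusted p = 0.411). Without wild-type replicate 3 the differences were 0.49 (adjusted p = 0.0225) and 0.55 (adjusted p = 0.0241), and both passed the threshold. Over all alternatives the adjusted p ranged from 0.0225 to 0.784 and from 0.0241 to 0.727. The libraries with high numbers exceeded those with low numbers by 0.74 in wild-type and by 0.40 in those labelled *sma-9*. The libraries labelled *sma-9* differed from wild-type by 0.28 within the low numbers and by -0.06 within the high numbers. *daf-4* had the widest spread of the 10 genes in wild-type, with an SD of 32.3% of the mean.

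In the branch that shares DAF-4, the genes of the ligand DAF-7, the type I receptor DAF-1, the Smads DAF-8, DAF-14 and DAF-3 and the cofactor DAF-5 were all tested. Of these 6 genes 0 were called in any of the 3 comparisons, by limma or limma voom. At an unadjusted p under 0.05 there were 2 in *sma-3* mutants, 0 in the libraries labelled *sma-9* and 1 between the mutants. The median differences were 0.17 in *sma-3* mutants and 0.16 in the libraries labelled *sma-9*, beside -0.01 and 0.00 for all tested genes. Calls among all tested genes were 9.36% higher and 12.2% lower in *sma-3* mutants, and 3.02% and 3.85% in the libraries labelled *sma-9*. Between the mutants they were 8.56% and 9.1%. Whether 0 of 6 genes differs from these shares was not tested.

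The R-Smad genes were both lower in *sma-3* mutants. *sma-3* (WBGene00004857; chromosome III, 6860974 to 6863968), with the values given above, fell by 0.76 in *sma-3* mutants (SE 0.091, limma adjusted p = 0.00101). It rose by 0.66 in the libraries labelled *sma-9* (SE 0.091, adjusted p = 0.00294), where all 3 values lay above all wild-type values. The difference was 0.67 among the low numbers and 0.70 among the high numbers. Its mean was 37.4 ± 0.86 CPM in the libraries labelled *sma-9* and 13.3 ± 0.791 CPM in *sma-3* mutants (SD, n = 3), a difference of -1.42 (adjusted p = 1.79e-05).

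*sma-2* (WBGene00004856; chromosome III, 8749680 to 8757089) had 14.4, 16.2 and 15.9 CPM in wild-type, 8.47, 9.56 and 9.73 CPM in *sma-3* mutants, and 17.1, 15.7 and 20.5 CPM in the libraries labelled *sma-9*. The *sma-3* libraries were again below all others. It fell by 0.69 in *sma-3* mutants (SE 0.109, limma adjusted p = 0.00315), and the difference was 0.18 in the libraries labelled *sma-9* (95% interval -0.06 to 0.43, adjusted p = 0.376). Exons of *sma-2* overlap those of *aak-1* and *ugtp-1* on the opposite strand, so its reads are uncertain. *aak-1* averaged 9.03 CPM and *ugtp-1* 17.3 CPM, levels close to that of *sma-2* itself. In *sma-3* mutants *ugtp-1* differed from wild-type by -0.13 (adjusted p = 0.29) and *aak-1* by -0.17 (adjusted p = 0.543). Neither was called there, while *ugtp-1* was lower in *sma-3* mutants than in the libraries labelled *sma-9*, by -0.44 (adjusted p = 0.00705).

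The Co-Smad gene *sma-4* (WBGene00004858; chromosome III, 5816232 to 5820204) had 36.5, 35.2 and 40.4 CPM in wild-type, 39.2, 34.9 and 34.95 CPM in *sma-3* mutants, and 41.3, 39.3 and 41.9 CPM in the libraries labelled *sma-9*. Both mutant groups overlapped wild-type. The difference was -0.04 in *sma-3* mutants (95% interval -0.22 to 0.14, limma adjusted p = 0.773) and turned to 0.05 with libraries scaled to equal totals. It was 0.13 in the libraries labelled *sma-9* (-0.05 to 0.31, adjusted p = 0.39).

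**Figure D2:**
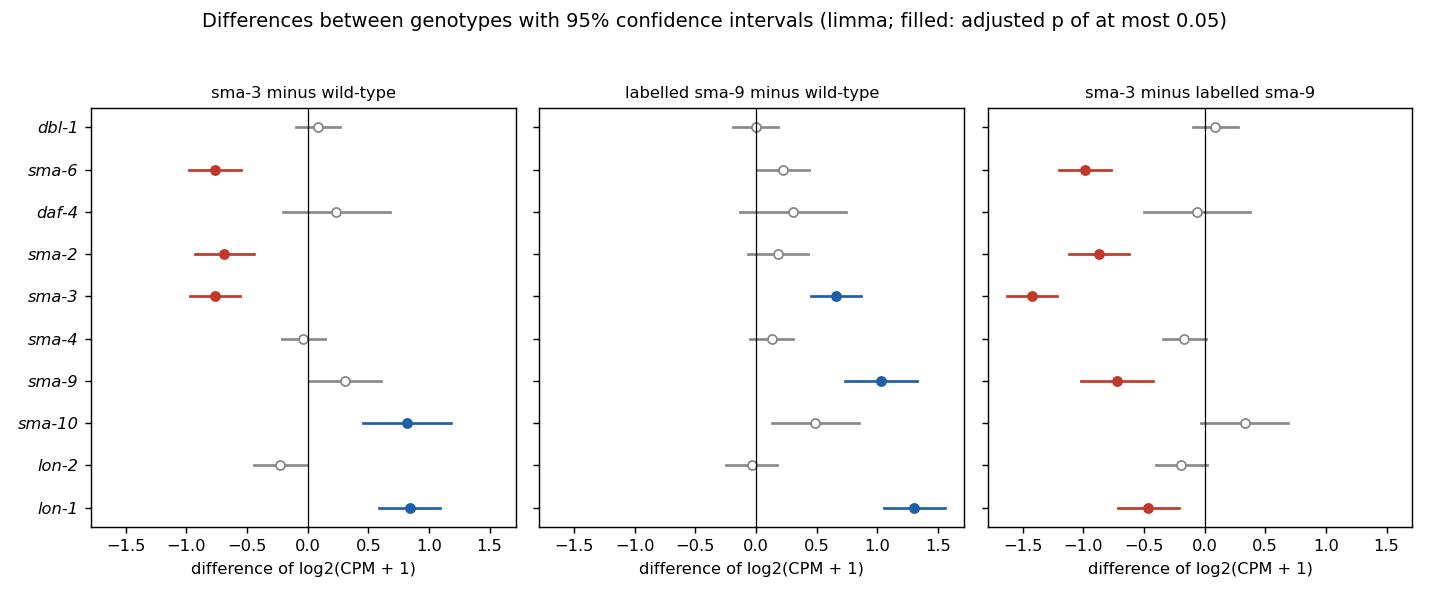
Difference of log2(CPM + 1) for each pathway gene (rows) with its 95% confidence interval from limma, for *sma-3* minus wild-type, the libraries labelled *sma-9* minus wild-type, and *sma-3* minus the libraries labelled *sma-9*. Filled points passed an adjusted p of 0.05, red lower and blue higher; *lon-1* is filled in all 3 panels, and *dbl-1*, *daf-4*, *sma-4* and *lon-2* are open in all 3.

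The Schnurri gene *sma-9* (WBGene00004862; chromosome X, 10769282 to 10782973), annotated with 16 transcripts, was higher in the libraries labelled *sma-9* by 1.03 (SE 0.132, limma adjusted p = 0.00202). Its mean was 202 ± 24.8 CPM there, 98.7 ± 17.7 CPM in wild-type and 121 ± 7.53 CPM in *sma-3* mutants (SD, n = 3). The groups labelled *sma-9* and wild-type did not overlap, and the difference was 0.96 within the low numbers and 0.85 within the high numbers. The difference in *sma-3* mutants was 0.31 (95% interval 0.01 to 0.61, adjusted p = 0.13). Without wild-type replicate 3, the highest wild-type library, it was 0.45 (adjusted p = 0.0176, with a range from 0.0176 to 0.322 over all alternatives). Its exons overlap those of *clc-4* on the opposite strand, which averaged 0.0159 CPM, and here too reads of the overlap cannot be told apart.

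Among the extracellular regulators, *sma-10* (WBGene00020649; chromosome IV, 274420 to 279943) encodes a membrane protein with leucine-rich repeats and immunoglobulin domains that promotes signaling. It had 27.2, 24.4 and 34.4 CPM in wild-type, 53.1, 50.3 and 49.4 CPM in *sma-3* mutants, and 31.5, 47.9 and 43.2 CPM in the libraries labelled *sma-9*. The *sma-3* libraries were above all others, and those labelled *sma-9* overlapped wild-type. *sma-10* rose by 0.82 in *sma-3* mutants (SE 0.16, limma adjusted p = 0.00775). In the libraries labelled *sma-9* the difference was 0.49 (95% interval 0.13 to 0.85, adjusted p = 0.109), which passed the threshold without wild-type replicate 3 (0.62, adjusted p = 0.0342) or without replicate 1 labelled *sma-9* (0.66, adjusted p = 0.0208). Its adjusted p over all alternatives ranged from 0.0208 to 0.305. Libraries with high numbers exceeded those with low numbers by 0.40 in wild-type and 0.52 in those labelled *sma-9*, and within these groups the genotypes differed by 0.28 and 0.39.

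The glypican gene *lon-2* (WBGene00003056; chromosome X, 4738964 to 4749083) had 26.7, 23.7 and 28.2 CPM in wild-type, 20.9, 21.6 and 24.0 CPM in *sma-3* mutants, and 23.7, 25.1 and 27.5 CPM in the libraries labelled *sma-9*. The highest *sma-3* library lay just above the lowest wild-type library. The difference was -0.23 in *sma-3* mutants (95% interval -0.44 to -0.02, limma adjusted p = 0.115). It was -0.04 in the libraries labelled *sma-9* (-0.25 to 0.17, adjusted p = 0.853), turning to 0.08 with equal totals.

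*lon-1* (WBGene00003055; chromosome III, 5474476 to 5478005), whose protein belongs to the family of cysteine-rich secretory proteins, was upregulated in both mutants. It had 100.5, 116 and 95.3 CPM in wild-type, 191, 188 and 179.9 CPM in *sma-3* mutants, and 303, 241 and 234 CPM in the libraries labelled *sma-9*. The 3 groups did not overlap, with wild-type lowest. *lon-1* rose by 0.84 in *sma-3* mutants (SE 0.111, limma adjusted p = 0.00146) and by 1.30 with the label *sma-9* (SE 0.111, adjusted p = 0.000195). Among the low numbers the latter difference was 1.48 and among the high numbers 1.31. The level in *sma-3* mutants was lower than in the libraries labelled *sma-9* by -0.46 (adjusted p = 0.021). This last call was lost without *sma-3* replicate 1, 2 or 3, at an adjusted p of 0.0523, 0.0732 and 0.0822, within a range from 0.00737 to 0.0822 over all alternatives.

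Groups also did not overlap for genes without a call. Without regard to the test, 5 of the 10 genes had no overlap between *sma-3* mutants and wild-type, beside 41.4% of all tested genes. For the libraries labelled *sma-9* it was 3 genes beside 22.2%, and between the mutants 7 genes beside 42.4%, where *sma-4* and *sma-10* joined the 5 called genes.

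Levels were compared between genes as CPM per kilobase of annotated exon. In wild-type, *lon-1* was highest with 88.5 ± 9.2 (SD, n = 3), above 89.9% of the tested genes. *sma-4* (19.8), *sma-6* (18.7), *daf-4* (18.5), *sma-3* (17.9) and *dbl-1* (16.8) followed, and neighbours in this order overlapped from *sma-4* to *dbl-1*. *lon-2* (13.7), *sma-9* (12.8), *sma-10* (9.53) and *sma-2* (9.1) came last, again with overlap between neighbours. Replicates did not overlap between *lon-1* and *sma-4* or between *dbl-1* and *lon-2*. With the longest transcript as the length, *daf-4* moved up to the place after *lon-1* (21.2), and *sma-2* and *sma-10* changed places.

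The order differed in the mutants. In *sma-3* mutants *lon-1* stood at 159, *daf-4* at 21.2, *sma-4* at 19.3, *dbl-1* at 17.8, *sma-10* at 16.9 and *sma-9* at 15.7 CPM per kilobase. *lon-2* (11.6), *sma-6* (10.8), *sma-3* (10.2) and *sma-2* (5.44) were at the bottom, so that the type I receptor and both R-Smads held the last 3 places. In this genotype the replicates did not overlap from *lon-1* to *daf-4*, to *sma-4* and to *dbl-1*, from *sma-9* to *lon-2*, or from *sma-3* to *sma-2*. In the libraries labelled *sma-9*, *sma-3* (28.7) and *sma-9* (26.1) came directly after *lon-1* (221), followed by *daf-4* (22.4), *sma-6* (21.9), *sma-4* (21.7), *dbl-1* (16.7), *sma-10* (13.6), *lon-2* (13.3) and *sma-2* (10.5). Neighbours without overlap were *lon-1* and *sma-3*, *sma-4* and *dbl-1*, and *lon-2* and *sma-2*. With the longest transcript as the length, *lon-2* and *sma-2* overlapped in these libraries.

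**Figure D3:**
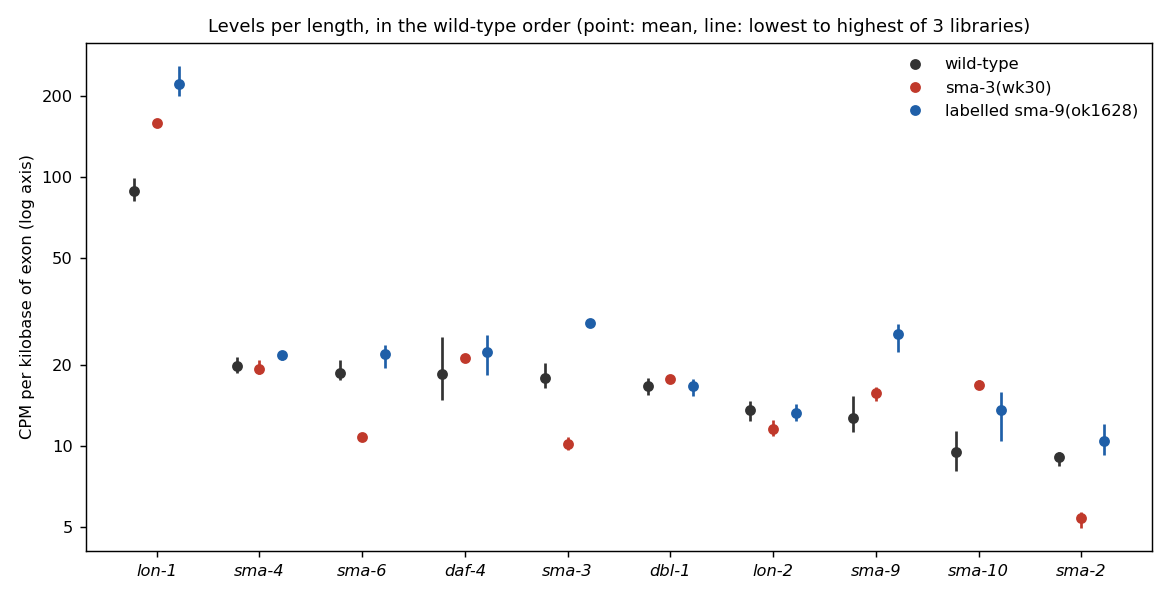
CPM per kilobase of exon on a log axis for the pathway genes, ordered by their wild-type mean. Points are means and lines run from the lowest to the highest of 3 libraries; *lon-1* is far above the rest in every genotype, and *sma-6*, *sma-3* and *sma-2* of *sma-3* mutants lie below those of the other genotypes.

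The balance between partners was described within each library by ratios of levels per kilobase, with no test. The R-Smads together over the Co-Smad, (*sma-2* + *sma-3*) / *sma-4*, gave 1.48, 1.38 and 1.24 in wild-type, 0.702, 0.853 and 0.892 in *sma-3* mutants, and 1.80, 1.81 and 1.80 in the libraries labelled *sma-9*. The 3 genotypes did not overlap, and in *sma-3* mutants the transcripts of the R-Smads summed to less than that of the Co-Smad. Ratios with *sma-2* share the uncertainty of its reads, and they restate the differences of the single genes given above. *sma-3* over *sma-2* was 1.72 to 2.40 in wild-type and 1.82 to 1.94 in *sma-3* mutants, so the R-Smad transcripts kept their ratio within the wild-type range. It was 2.33 to 3.09 in the libraries labelled *sma-9*, where the range overlapped that of wild-type.

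For the receptors, *sma-6* over *daf-4* was 1.20, 1.14 and 0.823 in wild-type, 0.499, 0.501 and 0.525 in *sma-3* mutants, and 1.06, 0.873 and 1.02 in the libraries labelled *sma-9*. By exon length the type I receptor transcript was thus below the type II receptor transcript in every *sma-3* library. Which of the 2 is higher depends on the length used. With the longest transcript, mean *sma-6* was below mean *daf-4* in every genotype. The means were 18.7 and 21.2 in wild-type, 10.8 and 24.2 in *sma-3* mutants, and 21.9 and 25.6 in the libraries labelled *sma-9*. *sma-10* over *sma-6* was 0.462 to 0.546 in wild-type, 1.48 to 1.64 in *sma-3* mutants and 0.534 to 0.707 in the libraries labelled *sma-9*. *lon-1* over *lon-2* rose from 5.52 to 7.99 in wild-type to 12.2 to 14.9 in *sma-3* mutants and 13.8 to 20.9 in the libraries labelled *sma-9*.

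**Figure D4:**
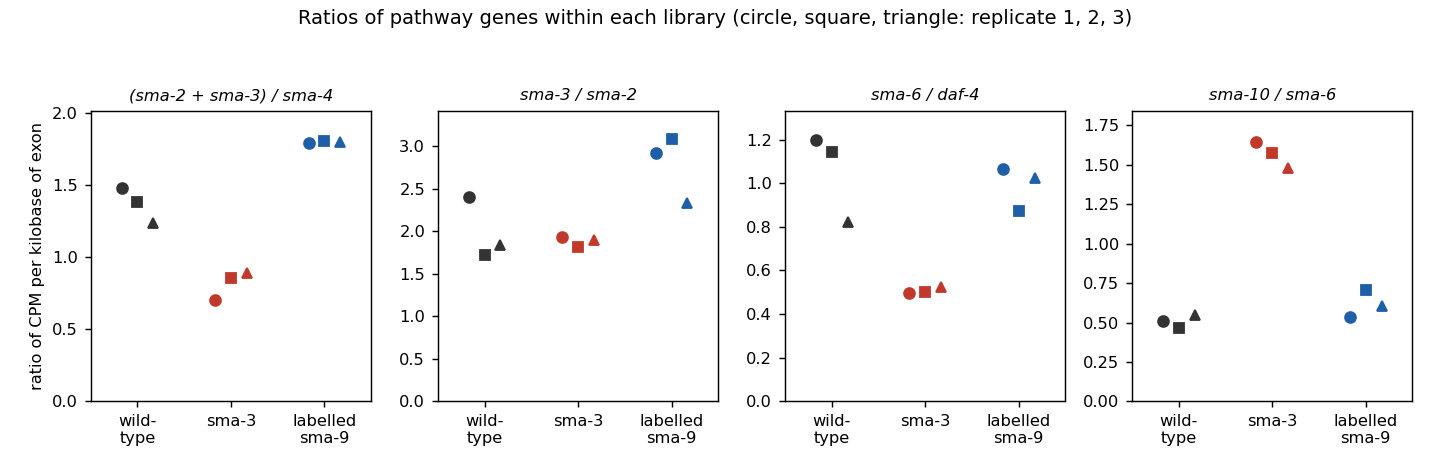
Ratios of levels per kilobase of exon between pathway genes within each library (y axes from 0), for wild-type, *sma-3* and the libraries labelled *sma-9*; symbols are replicates 1, 2 and 3. The ratio of both R-Smads to *sma-4* is 1.24 to 1.48 in wild-type, 0.702 to 0.892 in *sma-3* and 1.80 to 1.81 in the libraries labelled *sma-9*.

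Because *sma-2*, *sma-3*, *sma-4*, *daf-4* and *lon-1*, 5 of the 10 genes, lie on chromosome III, the 5 tested genes on each side of every pathway gene were listed. Around *sma-9* the 10 neighbours differed between the libraries labelled *sma-9* and wild-type by -0.21 to 0.24 with 0 called, while *sma-9* itself differed by 1.03. Among all tested genes 3.02% were higher and 3.85% lower there, and 9.36% and 12.2% in *sma-3* mutants. Around *sma-3* in the libraries labelled *sma-9* against wild-type the range was -0.38 to 0.37 with 0 called. In *sma-3* mutants the neighbours of *sma-3* ranged from -0.28 to 0.88, with F28F5.6 higher and *cra-1* lower. Next to *lon-1*, F48E8.2 and R02F2.7 were both lower in *sma-3* mutants, at -0.44 and -0.31, and R02F2.7 also in the libraries labelled *sma-9*, at -0.35, opposite in direction to *lon-1*. *tomm-70* beside *sma-2* was lower in *sma-3* mutants (-0.37) and with the label *sma-9* (-0.26). Near *sma-6*, *glb-10* was higher in *sma-3* mutants (0.29) and C32D5.8 with the label *sma-9* (0.33). Near *sma-4*, R12B2.8 was higher (0.59) and R12B2.2 (-0.40) and *ddx-23* (-0.50) lower in *sma-3* mutants. In the same mutants T25F10.3 near *dbl-1* (1.22) and *ttr-14* near *sma-9* (0.94) were higher, and *bas-1* near *daf-4* was lower (-0.27). C05D2.11 near *daf-4* was higher with the label *sma-9* (0.41). *aman-1* near *lon-2* was lower in *sma-3* mutants (-0.68) and with the label *sma-9* (-1.05). The neighbours of *sma-10* had the widest range of the 10 genes in *sma-3* mutants, with T21D12.12 (1.36) and T21D12.14 (1.14) higher and the cuticle collagen gene *dpy-9* lower (-1.12).

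**Figure D5:**
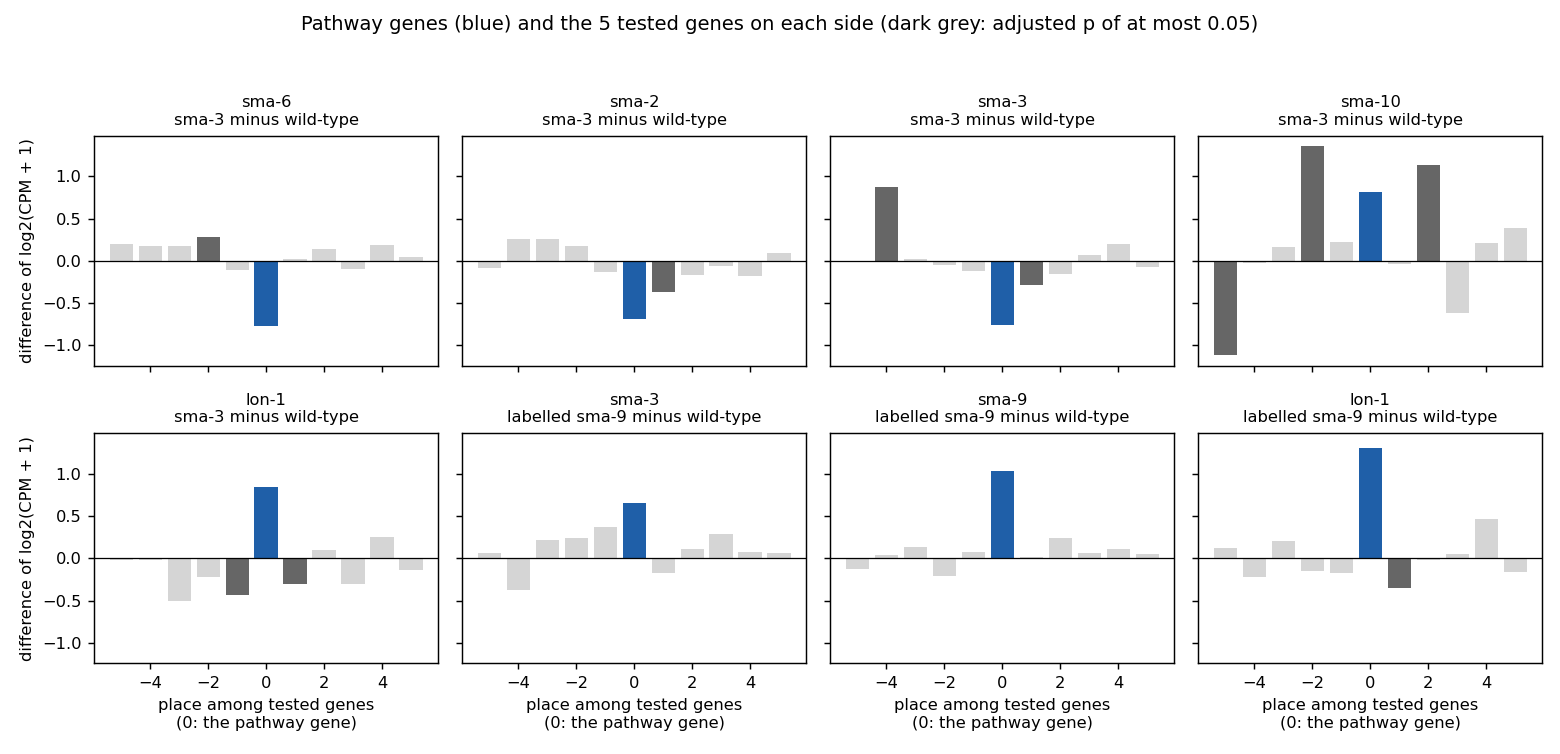
Difference of log2(CPM + 1) for called pathway genes (blue, place 0) and the 5 tested genes on each side in chromosome order; dark grey bars passed an adjusted p of 0.05 and light grey bars did not. Around *sma-9* in the libraries labelled *sma-9* no bar is dark, and around *sma-10* in *sma-3* mutants 3 are.

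Genes known to modulate the pathway were also read from the same test. The list held 19 genes, among them the BMP co-receptor genes *drag-1* and *unc-40*, tetraspanin genes, protease genes and genes of receptor trafficking. All 19 were tested. In *sma-3* mutants 1 was higher, beside 9.36% of all tested genes, and 1 was lower, beside 12.2%. The proprotein convertase gene *bli-4* went from 238 to 300.1 CPM (0.34, limma adjusted p = 0.026), and *rme-1*, which acts in endocytic recycling, went from 310.2 to 239 CPM (-0.37, adjusted p = 0.016). In the libraries labelled *sma-9* 0 of 19 were called, also by limma voom, with 1 at an unadjusted p under 0.05. Of all tested genes 3.02% were higher and 3.85% lower there. Between the mutants *bli-4* was higher in *sma-3* mutants (0.31, limma adjusted p = 0.041) and the secreted metalloprotease gene *adt-2* was lower (-0.42, adjusted p = 0.046). Of all tested genes 8.56% were higher and 9.1% lower in that comparison. The median differences of the list were -0.04 in *sma-3* mutants and 0.02 in the libraries labelled *sma-9*.

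Of 9 genes described as outputs of the pathway, all tested, 2 were higher and 1 was lower in *sma-3* mutants. All tested genes gave 9.36% higher and 12.2% lower there. In the libraries labelled *sma-9* 1 output gene was higher, beside 3.02% of all tested genes, and 1 was lower, beside 3.85%. Some of the 9 output genes were described from these same libraries, so their directions are not independent evidence. *zip-10*, a bZIP transcription factor gene, had 4.75 CPM in wild-type, 10.6 in *sma-3* mutants (1.04, limma adjusted p = 0.015) and 30.0 where the label was *sma-9* (2.44, adjusted p = 0.000383). As for *lon-1*, its level was higher in the libraries labelled *sma-9* than in *sma-3* mutants. *fat-6*, a stearoyl-CoA desaturase gene, fell from 562 CPM to 345 in *sma-3* mutants (-0.70) and 339.6 in the libraries labelled *sma-9* (-0.73). *spp-9*, a saposin-like gene, was higher in *sma-3* mutants, at 18.8 CPM beside 0.683 in wild-type (3.47, limma adjusted p = 0.00144). Between the mutants 1 output gene was higher in *sma-3* mutants, *spp-9* (4.01, limma adjusted p = 0.000601), beside 8.56% of all tested genes. Beside 9.1% of all tested genes, 2 were lower, *zip-10* (-1.41, adjusted p = 0.00456) and the cuticle collagen gene *lon-3* (-0.59, adjusted p = 0.048).

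The genes whose levels ran most like a pathway gene over the 9 libraries were listed by Pearson correlation of log2(CPM + 1), as a description. The points share the genotypes, the depth and the library numbers. For *sma-6* they were *hmg-4*, *smg-3* and F35F10.1 (0.985 to 0.992), of which F35F10.1 had 0.16 CPM in *sma-3* mutants beside 8.83 in wild-type. For *sma-2* they were *bcas-2*, *chil-10* and D1065.6 (0.976 to 0.985), and for *sma-3* F56H9.2, *aex-5* and *czw-1* (0.991 to 0.996). F56H9.2 followed *sma-3* in all genotypes, with 49.4, 29.9 and 74.4 CPM in wild-type, *sma-3* mutants and the libraries labelled *sma-9*. *sma-9* was most like K11H12.3, T24D5.2 and *ess-2* (0.981 to 0.985), *sma-10* most like *cec-2*, *nhr-136* and *bath-44* (0.986 to 0.992), and *lon-1* most like *gpcp-2*, *eri-6* and C33H5.13 (0.972 to 0.987).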

How the data were processed

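RNA-seq was analysed for 9 libraries, grouped by sample title into 3 genotypes of 3 replicates. The submitters' methods and processing notes name STAR 2.5.1a, WS245, polyA selection, paired ends and edgeR normalization; strand setting and handling of reads shared by genes are not given in the sources used here. The authors deposited log2 values of CPM with a prior averaging 2 reads. The prior was removed, and 100% of the values came out as whole reads (tolerance 0.02) in every library, giving 58889275 to 82735807 reads on genes. Below 200 reads, 57.5% to 62.1% of the values were even, so reads need not be independent.

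A gene was tested if 3 or more libraries had 1 CPM or more (13105 of 46875), on log2(CPM + 1) with limma 3.58.1 in R 4.3.3 (lmFit, contrasts.fit, eBayes with an intensity trend; 1 model, no replicate block; two-sided; Benjamini-Hochberg). The design gave this test for normalized or log values and another for raw counts. Tables and plots used Python 3.11.15, numpy 2.4.6, pandas 2.3.3, scipy 1.17.1 and matplotlib 3.10.9. Positions and exon lengths came from the WBcel235 annotation, which matched 46821 identifiers. The scripts were tested on simulated data.

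The genes named are the 10 pathway genes, the called genes of the lists of modulators and outputs, the 3 genes most alike each pathway gene called against wild-type, and, beyond that rule, some called neighbours and called tissue markers, overlapping genes and example list members, chosen after their values were seen. Dauer genes and tissue markers were otherwise given by count. Members and lists were chosen with earlier results of these data known. Protein and promoter sequences were not used here. Alternatives were other pseudocounts (0.5 and 2 CPM), filters, normalizations, models (limma voom on the recovered reads, 2 genotypes only, a replicate block, a library number term) and thresholds, a longest-transcript length, and each library left out in turn.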

Additional observations from a re-analysis of the deposited data

How the results depend on the processing

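For the 10 pathway genes in 3 comparisons, 580 values were recomputed under alternatives; 569 kept their side of the threshold with no sign change beyond 1 SE, 5 passed the threshold, 3 lost it, and 3 without a call changed sign by more than 1 SE under equal totals (*sma-4* in *sma-3* mutants, 0.05; *dbl-1*, 0.11, and *lon-2*, 0.08, in the libraries labelled *sma-9*). Every gene called against wild-type kept its call and direction under each alternative run for the pathway genes. Those that passed or lost the threshold are given beside their results. The threshold of at least 2-fold was applied only to the counts over all tested genes. Every pathway gene called in *sma-3* mutants changed by less than 2-fold, with *lon-1* the largest at 1.79-fold. With the label *sma-9*, *sma-3* changed by 1.58-fold, while *sma-9* (2.04-fold) and *lon-1* (2.47-fold) exceeded 2-fold. Equal totals moved the median of all tested genes to 0.07 in *sma-3* mutants and 0.11 in the libraries labelled *sma-9*. It moved the share of called genes that were lower from 56.5% to 35.9% and from 56.0% to 32.3%.

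Counts over all tested genes moved more. In *sma-3* mutants 1227 genes were higher and 1596 lower; equal totals gave 878 lower, and a change of at least 2-fold left 376 and 151. In the libraries labelled *sma-9* 396 were higher and 505 lower; a mean of at least 5 CPM gave 242 higher, equal totals 263 lower, only the 2 genotypes compared 221 and 224, a change of at least 2-fold 127 and 77, and a term for the library number 345 and 466. Between the mutants 1122 were higher and 1193 lower in *sma-3* mutants, and 334 and 173 with at least 2-fold.

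Leaving out 1 library gave 545 to 1427 higher and 784 to 1864 lower genes in *sma-3* mutants, 214 to 710 and 273 to 859 in the libraries labelled *sma-9*, and 474 to 1510 and 488 to 1635 between the mutants. Counts rose most without wild-type replicate 3. They fell by over 1.5 times without any *sma-3* replicate in both comparisons of *sma-3* mutants, and without replicate 2 or 3 labelled *sma-9* in both comparisons of that label; the lower count of that label against wild-type also did so without wild-type replicate 1 or 2 (322 and 313). Of the pathway genes, 2 to 4 were higher and 3 lower in *sma-3* mutants, 3 to 5 higher and 0 lower in the libraries labelled *sma-9*, and 0 higher and 4 to 5 lower between the mutants. Where a fit left 2 libraries in a group, all groups shared 1 estimate of the spread.

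Replicate numbers are shared by the titles, but same-numbered libraries had correlations of -0.629 to 0.399 in their deviations from the group means, not all above 0.1, so the numbers were not taken to pair them. With a replicate block 893 genes were higher and 1188 lower in *sma-3* mutants, 291 and 322 in the libraries labelled *sma-9*, and 774 and 789 between the mutants; the counts of pathway genes did not change. With the longest transcript as the length, 27 of 30 levels per kilobase moved by less than 1 SD.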
